A study of Mus musculus with 9 samples.

Results

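Expression of 9 genes that mark lipid-associated and disease-associated macrophages was followed in mouse bone marrow-derived macrophages kept with sensory neurons, given transforming growth factor beta (TGF-β), or left alone. The 9 are Gpnmb, Spp1, Lgals3, Cd9, Cd63, Igf1, Ank, Lilrb4 and Csf1, taken by symbol from a table of 24607 genes, and each had exactly 1 row. All 9 passed the filter on low values, and all 9 also passed it in the TGF-β and monoculture libraries alone. The 3 groups were macrophages co-cultured with neurons of the dorsal root ganglion (DRG, the cluster of sensory nerve cell bodies beside the spinal cord), macrophages exposed to TGF-β at 0.02 ng/ml, and macrophages in monoculture, with 3 libraries each. Cells of every group, the monoculture included, came from CX3CR1-gfp/+ mice, in which green fluorescent protein sits at 1 Cx3cr1 allele. M-CSF (macrophage colony-stimulating factor) was given to all of them at 50 ng/ml for differentiation, and all carry a time label of 5 days, which the treatment protocol sets before the conditions began and the design text gives as their length. They were sorted on CD11b and CD64 before RNA was taken, so the libraries hold sorted cells and not whole cultures. The labels used here give no age or sex. The design text names 3 mice as the source without saying whether the same mice served every group, and p-values measure the spread between these libraries.

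Lipid-associated macrophages were described in obese fat and atherosclerotic tissue, and disease-associated microglia around protein deposits and damaged neurons in the brain. Both states share a program that depends in part on the lipid-sensing receptor Trem2 and includes lysosomal, lipid-handling and secreted genes. Among its genes, Spp1 (osteopontin), Igf1 (insulin-like growth factor 1) and Csf1 (the gene of M-CSF itself) encode secreted signals. Gpnmb and Lilrb4 encode surface glycoproteins, Cd9 and Cd63 tetraspanins of membranes and exosomes, Lgals3 a sugar-binding lectin, and Ank an exporter involved in pyrophosphate release. In sensory ganglia of mice, Csf1 is known as a signal that injured neurons send to macrophages and microglia.

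The libraries held 46831914 to 308777042 reads. Values are normalized counts, that is, reads divided by the authors' size factor of the library, and 1 read was worth 0.346 to 2.27. A list of macrophage markers held 10 symbols for 9 genes, since Emr1 and Adgre1 name the same gene. All 9 had a row, were detected in every group and passed the filter. Markers of fibroblasts, a cell type that can accompany ganglion cultures, summed to 7401 to 10588.5 normalized counts in the 3 co-culture libraries. The same sum was 81.2 to 170.4 in TGF-β libraries and 74.4 to 188 in monoculture libraries. They took 0.00692 to 0.00960% of the reads in co-culture, where each marker with a row had a read in at least 1 library, and Lum, Pdgfra, Thy1 and Mfap5 stood at 0 reads in every monoculture library. Among 14 markers of Schwann and satellite glia, Ngfr and Foxd3 were at 0 in all TGF-β and monoculture libraries and above 0 in co-culture. The list as a whole was mixed, with 8 markers higher and 3 lower in co-culture against monoculture (limma, adjusted p under 0.05). Its sum per library, most of it Pmp22, was lower in co-culture (19964 to 26391) than with TGF-β (53863 to 57755) or in monoculture (63285.5 to 78873). Library 1 of each group carried Y-linked expression, with a sum over 4 Y-linked genes of 21544 in co-culture, 18839 with TGF-β and 17950.0 in monoculture. In libraries 2 and 3 that sum was 109 and 108 in co-culture, 0 and 0 with TGF-β, and 2.30 and 0 in monoculture. Whether fewer cells of a type or less RNA per cell lies behind a level cannot be told apart in such bulk samples.

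In co-culture most of the 9 genes were lower. Of the 9, 7 fell and 2 rose against monoculture at an adjusted p under 0.05 (limma, Benjamini-Hochberg over 16328 genes), where 15.0% of all tested genes fell and 15.9% rose (30.8% in either direction). Their median log2 fold change was -0.73, beside 0.03 over all tested genes. Lgals3 fell most, followed by Igf1, Ank, Cd9, Spp1, Gpnmb and Lilrb4, and Csf1 rose. With TGF-β 1 gene fell, Gpnmb, and none rose, where 1.39% of all tested genes fell and 1.13% rose (2.52% in either direction), and the median of the 9 was -0.14 beside -0.01 over all tested genes. Both sets of fold changes use the same monoculture libraries. Compared directly, co-culture was lower than TGF-β for 5 of the 9 and higher for Csf1, where 11.9% of all tested genes were lower and 13.4% higher (25.3% in either direction). All fold changes below are log2 of the value plus 10 with the standard error of the fit, and all adjusted p-values come from the same limma fit.

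**Figure D1:**
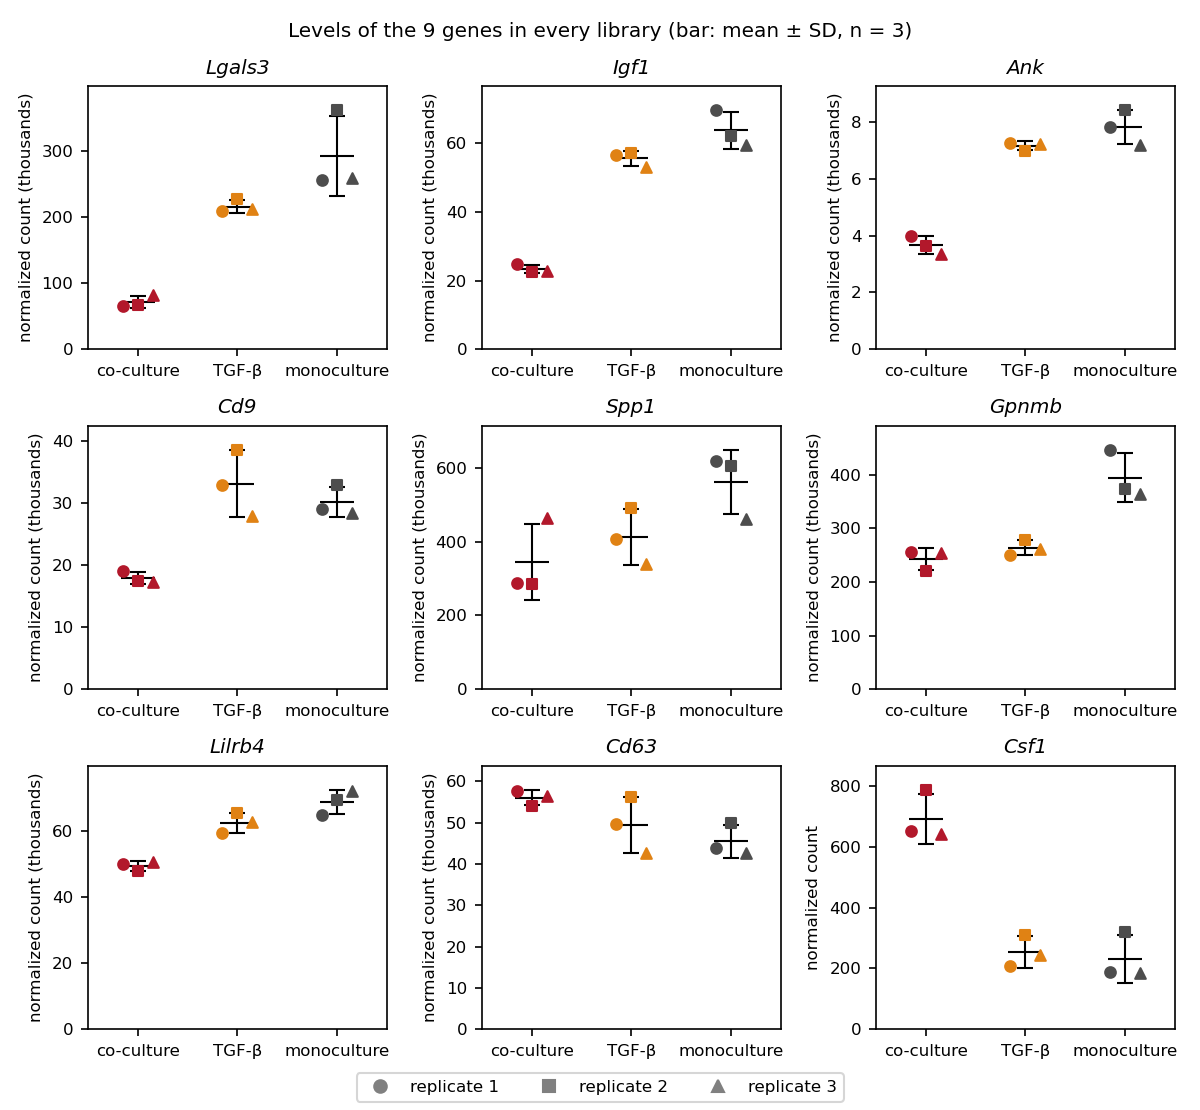
Normalized counts of the 9 genes (y axes, from 0, scaled as each axis states) in every library of the 3 groups, with a marker shape per replicate number and the mean ± SD of 3 libraries as bars. The 3 co-culture libraries lie below all others for Lgals3, Igf1, Ank, Cd9 and Lilrb4 and above all others for Csf1, while for Spp1 co-culture library 3, at 463172, overlaps monoculture.

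The genes were far apart in abundance. Per kilobase of exon (GENCODE M21 gene models), Spp1 had a mean level of 209397, 249823 and 340645 normalized counts in co-culture, TGF-β and monoculture, which ranked 18, 17 and 12 among all tested genes. Lgals3 followed at 38628, 116019 and 157301 per kilobase (ranks 84, 26 and 23) and Gpnmb at 37389, 40462 and 60577 (ranks 89, 95 and 50). Cd63 and Cd9 stood near each other in monoculture, at 12355 and 14765 per kilobase. Csf1 was the lowest at 131, 48.2 and 43.8 per kilobase and rested on 965 to 1879 reads in co-culture libraries, 108 to 276 in TGF-β libraries and 115 to 279 in monoculture libraries. Spp1, Gpnmb and Lgals3 together took 0.547 to 0.725% of co-culture reads, compared with 0.760 to 0.815% of TGF-β reads and 1.03 to 1.26% of monoculture reads. All 9 genes together took 0.687 to 0.862% of co-culture reads, 0.941 to 0.999% of TGF-β reads and 1.23 to 1.48% of monoculture reads, and the 3 groups did not overlap in this share.

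**Figure D2:**
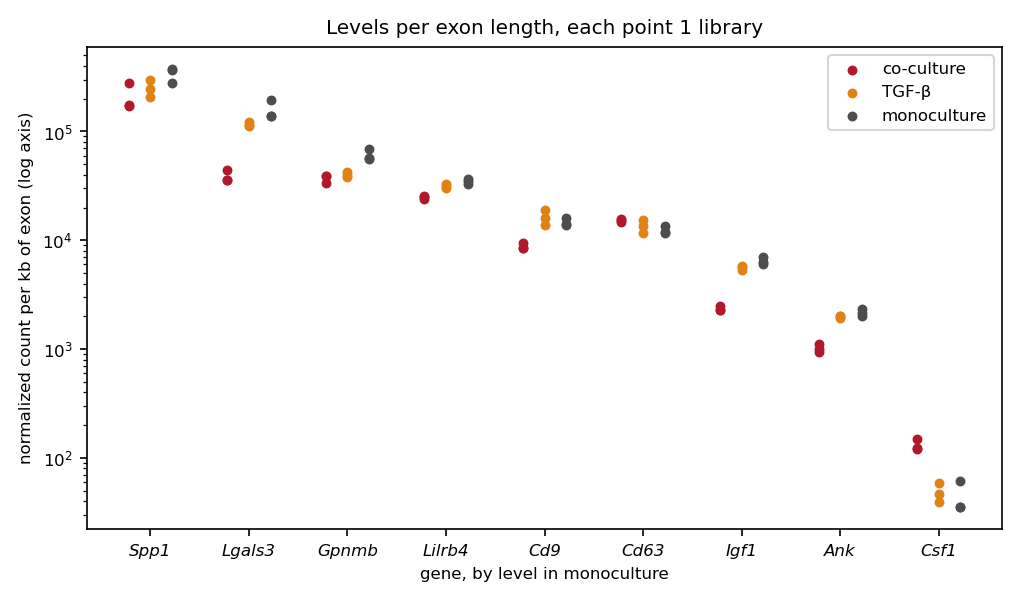
Normalized counts per kilobase of exon (log axis) of the 9 genes, ordered by their level in monoculture, with 1 point per library. Spp1 is the highest of the 9 in every library, and Csf1 is the lowest, with means of 131 in co-culture and 43.8 in monoculture.

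Promoter sequences are shown for Lgals3, Gpnmb and Spp1, the 3 most abundant genes of the set, all of which fell in co-culture, and for Csf1, which rose there. Each runs 5′ to 3′ on the gene's own strand from 250 bases before to 50 bases after the start in RefSeq (build GRCm38.p6), and 8 of the 9 genes matched that table, which has 2 starts for Spp1 and so gives 9 windows. The windows were searched on both strands for the motifs of AP-1 (TGANTCA), PU.1 (GAGGAAGT) and NF-κB (whose letters stand in capitals in the Csf1 sequence, there on the opposite strand), the E-box CACGTG of MiT/TFE and related factors, and the paired SMAD box GTCTAGAC, and matches are in capitals.
Lgals3, chr14:47373610-47373909, plus strand: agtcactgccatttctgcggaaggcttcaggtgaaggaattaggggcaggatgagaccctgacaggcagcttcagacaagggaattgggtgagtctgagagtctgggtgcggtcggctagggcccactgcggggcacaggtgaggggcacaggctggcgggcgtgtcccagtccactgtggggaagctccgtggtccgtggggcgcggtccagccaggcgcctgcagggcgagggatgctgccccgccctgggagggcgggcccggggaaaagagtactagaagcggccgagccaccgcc
Gpnmb, chr6:49036268-49036567, plus strand: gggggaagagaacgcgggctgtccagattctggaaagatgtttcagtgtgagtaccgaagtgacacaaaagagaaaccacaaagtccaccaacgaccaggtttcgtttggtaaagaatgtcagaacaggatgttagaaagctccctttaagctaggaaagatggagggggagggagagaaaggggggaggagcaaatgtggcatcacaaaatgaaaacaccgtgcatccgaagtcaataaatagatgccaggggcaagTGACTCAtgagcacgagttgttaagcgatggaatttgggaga
Spp1, chr5:104434861-104435160, plus strand: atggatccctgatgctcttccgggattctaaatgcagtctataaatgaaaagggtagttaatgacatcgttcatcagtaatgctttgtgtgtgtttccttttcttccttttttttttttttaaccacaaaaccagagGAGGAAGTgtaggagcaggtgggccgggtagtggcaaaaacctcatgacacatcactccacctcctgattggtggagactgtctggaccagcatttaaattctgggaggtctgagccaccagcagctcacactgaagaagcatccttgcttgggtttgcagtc
Csf1, chr3:107760420-107760719, minus strand: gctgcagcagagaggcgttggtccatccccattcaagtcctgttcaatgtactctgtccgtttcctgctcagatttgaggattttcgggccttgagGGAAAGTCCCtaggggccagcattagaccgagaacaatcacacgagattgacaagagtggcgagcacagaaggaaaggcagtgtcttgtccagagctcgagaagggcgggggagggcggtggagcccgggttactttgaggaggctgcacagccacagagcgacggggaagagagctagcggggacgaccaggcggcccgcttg
The Gpnmb window held an AP-1 motif starting at position 9 after the RefSeq start, a motif found in 7.81% of 32851 such windows in the table. The GENCODE M21 gene begins further downstream, at 49036546, and the motif lies before that start. The Spp1 window shown, that of its upstream start, held a PU.1 motif at position -113 (3.20% of windows) and the window of its other start (chr5:104435942-104436241) none of the 5 motifs, and the Csf1 window an NF-κB motif at position -154 (0.155% of windows). The Igf1 window, not shown, held an AP-1 motif at position -37. The Lgals3 window held none of the 5 motifs. The E-box CACGTG (7.15% of windows) and the SMAD box pair (0.213%) were in none of the 9 windows of these genes. A match describes letters in these windows and is not a site.

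Lgals3 (ENSMUSG00000050335, chr14:47367751-47386160, plus strand; positions of all 9 genes are mm10, GENCODE M21) encodes galectin 3, a lectin that macrophages secrete in quantity and that gathers on damaged lysosomes. It had 66195, 67008 and 82109 normalized counts in co-culture libraries 1 to 3, 208632, 226766 and 211295 with TGF-β, and 255722, 361664 and 259409 in monoculture. Every co-culture library was below every TGF-β library, and every TGF-β library below every monoculture library. Against monoculture it fell by 2.01 ± 0.13 in co-culture (log2 fold change ± SE, n = 3 each, adjusted p = 4.94e-08), a mean of 71771 ± 8962 in co-culture and 292265 ± 60129.7 in monoculture (SD). This was the 240th largest fall among the 16328 tested genes. With TGF-β the change was -0.42 ± 0.13 and did not pass (adjusted p = 0.131), although it passed with DESeq2 on the recovered reads (-0.44, adjusted p = 0.0265). Co-culture was also lower than TGF-β, by -1.59 ± 0.13 (adjusted p = 9.54e-07).

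Igf1 (ENSMUSG00000020053, chr10:87858265-87937042, plus strand) encodes a growth factor that acts on neurons, glia and muscle, and tissue macrophages are among its sources. Its normalized counts were 24778, 22476 and 22735 in co-culture, 56563, 57119 and 53061 with TGF-β, and 69647, 61935 and 59480.1 in monoculture. The co-culture libraries stood apart from all 6 others, and the TGF-β libraries lay below the monoculture libraries by less than 1 standard deviation of monoculture between the nearest libraries. Igf1 fell in co-culture (-1.45 ± 0.09, adjusted p = 1.93e-08), and with TGF-β it did not pass the test (-0.19 ± 0.09, adjusted p = 0.312, interval -0.38 to -0.01). Its level in co-culture was lower than with TGF-β by -1.25 ± 0.09 (adjusted p = 1.57e-07). The table also lists Igf1os, an antisense gene at the Igf1 locus, which averaged 122 in co-culture, 97.8 with TGF-β and 84.8 in monoculture and shares no exon bases with Igf1.

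Ank (ENSMUSG00000022265, chr15:27466677-27594909, plus strand) encodes a transmembrane protein through which cells release pyrophosphate and nucleotides that keep calcium phosphate from crystallizing. Its normalized counts were 3998, 3621 and 3364 in co-culture, 7266, 6969 and 7231 with TGF-β, and 7812, 8416 and 7201 in monoculture. All co-culture libraries were below the others, whereas TGF-β and monoculture overlapped. Ank fell in co-culture (-1.09 ± 0.09, adjusted p = 2.87e-07), the change with TGF-β did not pass (-0.12 ± 0.09, adjusted p = 0.569, interval -0.31 to 0.06), and co-culture was lower than TGF-β by -0.97 ± 0.09 (adjusted p = 1.67e-06).

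Of the tetraspanins, Cd9 fell and Cd63 rose. Cd9 (ENSMUSG00000030342, chr6:125460266-125494791, minus strand), which organizes adhesion receptors at the cell surface and marks lipid-associated macrophages, had 19091, 17396 and 17309.9 normalized counts in co-culture, 32961, 38599 and 27943 with TGF-β, and 29102, 32986 and 28454 in monoculture. The co-culture libraries lay below all others, and the TGF-β libraries spread across the monoculture range. Cd9 fell by 0.75 ± 0.11 in co-culture against monoculture (adjusted p = 1.12e-04) and was lower than with TGF-β by -0.88 ± 0.11 (adjusted p = 4.04e-05). With TGF-β against monoculture it was 0.13 ± 0.11 (adjusted p = 0.671, interval -0.11 to 0.36). Cd63 (ENSMUSG00000025351, chr10:128900989-128912822, plus strand), a tetraspanin of late endosomes and lysosomes, had 57786, 54031 and 56457 in co-culture, 49772, 56199 and 42568 with TGF-β, and 43808, 50047 and 42619.6 in monoculture. The co-culture libraries lay narrowly above monoculture, and TGF-β spanned both. The rise in co-culture was small (0.31 ± 0.11, adjusted p = 0.0410), and Cd63 passed neither with TGF-β (0.12 ± 0.11, adjusted p = 0.686) nor between co-culture and TGF-β (0.19 ± 0.11, adjusted p = 0.224, interval -0.04 to 0.42). The call on Cd63 in co-culture was lost with no filter (adjusted p = 0.0531), without co-culture library 1, 2 or 3 (0.132, 0.0734 and 0.0905), without TGF-β library 1 (0.0627) and without monoculture library 1 or 3 (0.110 and 0.119). The pseudogene Cd63-ps, which could share reads, stood at 0.752 to 1.19% of the sum of both genes in all libraries.

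**Figure D3:**
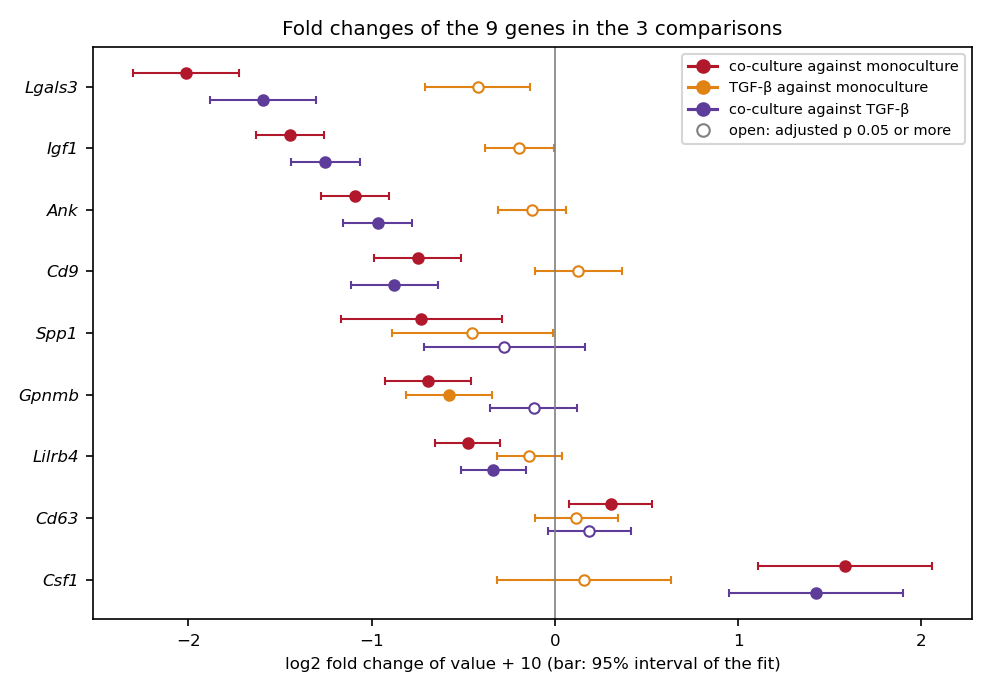
Log2 fold changes (x axis) of the 9 genes in the 3 comparisons (red, co-culture over monoculture; orange, TGF-β over monoculture; purple, co-culture over TGF-β), with the 95% interval of the fit as bars and open symbols where the adjusted p was 0.05 or more. Lgals3, Igf1 and Ank lie furthest left in both co-culture comparisons and at -0.42, -0.19 and -0.12 with TGF-β, Gpnmb lies left of 0 in both comparisons against monoculture, and Csf1 lies right of 0 in both co-culture comparisons.

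Gpnmb (ENSMUSG00000029816, chr6:49036546-49070929, plus strand), which encodes a transmembrane glycoprotein of lysosomes and melanosomes induced in lipid-laden macrophages, was the gene that fell under both conditions. It had 256364, 219899 and 254385 normalized counts in co-culture, 250771, 278636 and 261310.1 with TGF-β, and 446335, 372569.6 and 364895 in monoculture. Co-culture and TGF-β libraries overlapped, and each of the 6 was below all monoculture libraries. The fall was -0.69 ± 0.11 in co-culture (adjusted p = 2.10e-04) and -0.58 ± 0.11 with TGF-β (adjusted p = 0.0115), and the difference between them, -0.12 ± 0.11, did not pass (adjusted p = 0.497, interval -0.35 to 0.12). Without TGF-β library 1 or monoculture library 1 the call with TGF-β was lost (adjusted p = 0.0876 and 0.0525).

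Spp1 (ENSMUSG00000029304, chr5:104435118-104441050, plus strand), the gene of the secreted matrix protein osteopontin, was the most abundant of the 9 and the most variable between co-culture libraries. Its normalized counts were 287365, 284721 and 463172 in co-culture, 406173, 490589 and 338364 with TGF-β, and 619529, 603369 and 461252 in monoculture. Co-culture libraries 1 and 2 were below all others, but co-culture library 3 was above monoculture library 3. Spp1 fell in co-culture (-0.73 ± 0.20, adjusted p = 0.0157), and this call was lost without co-culture library 1 or 2 (adjusted p = 0.0687 and 0.0670) or monoculture library 2 (0.0588). With TGF-β it was -0.45 ± 0.20 (adjusted p = 0.319). Co-culture against TGF-β gave -0.28 ± 0.20 (adjusted p = 0.363, interval -0.72 to 0.16), or -0.51 without co-culture library 3, which then passed (adjusted p = 0.0394).

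Lilrb4 (ENSMUSG00000062593, chr10:51480612-51496613, plus strand) encodes an inhibitory immunoglobulin-like receptor that signals through phosphatases. Its normalized counts were 50055, 47942 and 50734 in co-culture, 59611, 65529.6 and 62744 with TGF-β, and 65039, 69545 and 72328 in monoculture. The co-culture libraries were below all others, and TGF-β overlapped monoculture by 1 library of each. Lilrb4 fell in co-culture against monoculture (-0.48 ± 0.08, adjusted p = 4.68e-04), the change with TGF-β did not pass (-0.14 ± 0.08, adjusted p = 0.478), and co-culture was lower than TGF-β by -0.34 ± 0.08 (adjusted p = 0.00777, or 0.0506 without co-culture library 2). Its close relative Gp49a averaged 29074 ± 1972 in co-culture, 32623 ± 5499.6 with TGF-β and 36175 ± 8482 in monoculture and did not pass (-0.29 ± 0.16 in co-culture against monoculture, adjusted p = 0.188). GENCODE M21 names the Lilrb4 identifier Gm49339, and its exons share 1846 bases with the gene there called Lilrb4a. Lilrb4a has no row among the deposited values, so no reads were counted under that name. The annotation used for counting is not given, so how reads were divided between Lilrb4 and Gp49a is uncertain.

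Csf1 (ENSMUSG00000014599, chr3:107741048-107760469, minus strand), the gene of M-CSF, on which macrophages depend for survival, rose most of the 9. It had 651, 788 and 641 normalized counts in co-culture, 207, 310.3 and 245 with TGF-β, and 187, 321 and 186 in monoculture. Every co-culture library was above every other library, and TGF-β and monoculture overlapped. Csf1 rose in co-culture (1.58 ± 0.22, adjusted p = 6.87e-05), a mean difference of 462 normalized counts, and was higher than with TGF-β by 1.42 ± 0.22 (adjusted p = 2.54e-04). With TGF-β against monoculture it was 0.16 ± 0.22 (adjusted p = 0.816, interval -0.32 to 0.63). Fibroblasts and injured neurons also express Csf1, and the fibroblast markers, whose sum per library was 7401 to 10588.5 in co-culture against 74.4 to 188 in monoculture, were higher in the same libraries. Their part in the rise of Csf1 was not tested. Of the 16 fibroblast markers in the table, 14 were tested and all 14 rose, and 3 of these would pass the filter in the other 6 libraries. In the same comparison 15.9% of all tested genes rose and 15.0% fell. Of the sensory neuron markers 15 had a row and 5 were tested, of which 1 rose and 1 fell. Their summed level was 611 to 868 in co-culture libraries, 8111 to 10758 in TGF-β libraries and 8766 to 10077 in monoculture libraries. Most of it was the ubiquitin hydrolase gene Uchl1, with a mean of 514 in co-culture, 9202 with TGF-β and 9141 in monoculture, and Nefm, Isl1, Trpv1 and Snap25 were at 0 in monoculture. Of 14 Schwann and satellite glia markers, all tested, 8 rose and 3 fell in co-culture, and they summed to 19964 to 26391 in co-culture libraries, 53863 to 57755 in TGF-β libraries and 63285.5 to 78873 in monoculture libraries, mostly from the myelin gene Pmp22. The receptor gene Csf1r averaged 86325 in co-culture, 85038 with TGF-β and 82746 in monoculture and did not pass (0.06 ± 0.10 in co-culture, adjusted p = 0.696).

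The genes whose profiles over the 9 libraries lay closest to each member were found by the root mean square difference of log2 values centered on each gene's own mean. Among the 9 themselves, Ank was closest to Igf1 (0.174) and to Cd9 (0.193), Gpnmb to Lilrb4 (0.214) and Spp1 to Gpnmb (0.229), while Csf1 was far from all, its nearest being Cd63 (0.630). Outside the set, Lgals3 was closest to the lamin gene Lmna (0.110) and the gasdermin gene Dfna5 (0.134). Igf1 was closest to Tmcc2 (0.0834) and the catalase gene Cat (0.0890), and Ank to the AMP deaminase gene Ampd3 (0.0644) and Rasgef1b (0.0650). Cd9 was closest to the thioredoxin gene Txn1 (0.0852) and Avpi1 (0.104), Cd63 to the vesicle fusion gene Ykt6 (0.0513) and the myosin light chain gene Myl12b (0.0661), and Lilrb4 to Rabgap1l (0.0407) and Eif2d (0.0503). Spp1 was closest to the lactate exporter gene Slc16a3 (0.121) and the glucose transporter gene Slc2a1 (0.128), and Gpnmb to the phosphatase gene Dusp10 (0.108) and the actin-binding gene Palld (0.119). The nearest to Csf1, Tmem47 (0.162) and Sorbs2 (0.170), were scarce genes, with means of 28.2 and 25.6 normalized counts in co-culture, 2.91 and 1.46 with TGF-β, and 2.30 and 0.767 in monoculture. This likeness is a description over 9 libraries that share their groups.

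The wider program changed in both directions. Of 40 other lipid- and disease-associated macrophage genes, all tested, 15 rose and 14 fell in co-culture against monoculture (median log2 fold change 0.04, beside 0.03 over all tested genes). Those called were 72.5% of the list, where 30.8% of all tested genes were called. The lipid genes Lpl (-4.73 ± 0.10) and Cd36 (-3.16 ± 0.16) fell and the lipid carrier gene Apoe rose (3.27 ± 0.13). In co-culture against TGF-β, Lpl differed by -3.60 ± 0.10 (adjusted p = 3.66e-11), Cd36 by -2.71 ± 0.16 (adjusted p = 1.14e-07) and Apoe by 2.01 ± 0.13 (adjusted p = 9.44e-08). Chosen after their values were seen, the disease-associated microglia genes Itgax (2.30 ± 0.28, adjusted p = 1.40e-04), Cst7 (1.80 ± 0.22, adjusted p = 1.89e-05), Axl (2.11 ± 0.24, adjusted p = 8.84e-05) and Clec7a (0.71 ± 0.15, adjusted p = 0.00277) rose in co-culture, while Trem2 fell (-0.53 ± 0.08, adjusted p = 1.78e-04). Other genes of the list, also named afterwards, fell as well. These were Ctsl (-1.73 ± 0.22, adjusted p = 1.16e-04), Ccl4 (-1.16 ± 0.13, adjusted p = 1.46e-05) and Cadm1 (-1.06 ± 0.14, adjusted p = 5.80e-05). Ccl3 (-0.98 ± 0.11, adjusted p = 9.94e-06) and Fth1 (-0.63 ± 0.14, adjusted p = 0.00325) were lower too. The named rises therefore do not stand for the list, of which 15 rose and 14 fell. Axl also rose with TGF-β (1.72 ± 0.24, adjusted p = 0.00538), and its difference between co-culture and TGF-β did not pass (0.39 ± 0.24, adjusted p = 0.289). Itgax, Cst7 and Clec7a did not pass with TGF-β against monoculture (adjusted p = 0.237, 0.814 and 0.812). With TGF-β 4 of the 40 rose and 1 fell, Lpl (-1.13 ± 0.10, adjusted p = 6.26e-05). Those called were 12.5% of the list, where 2.52% of all tested genes were called.

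**Figure D4:**
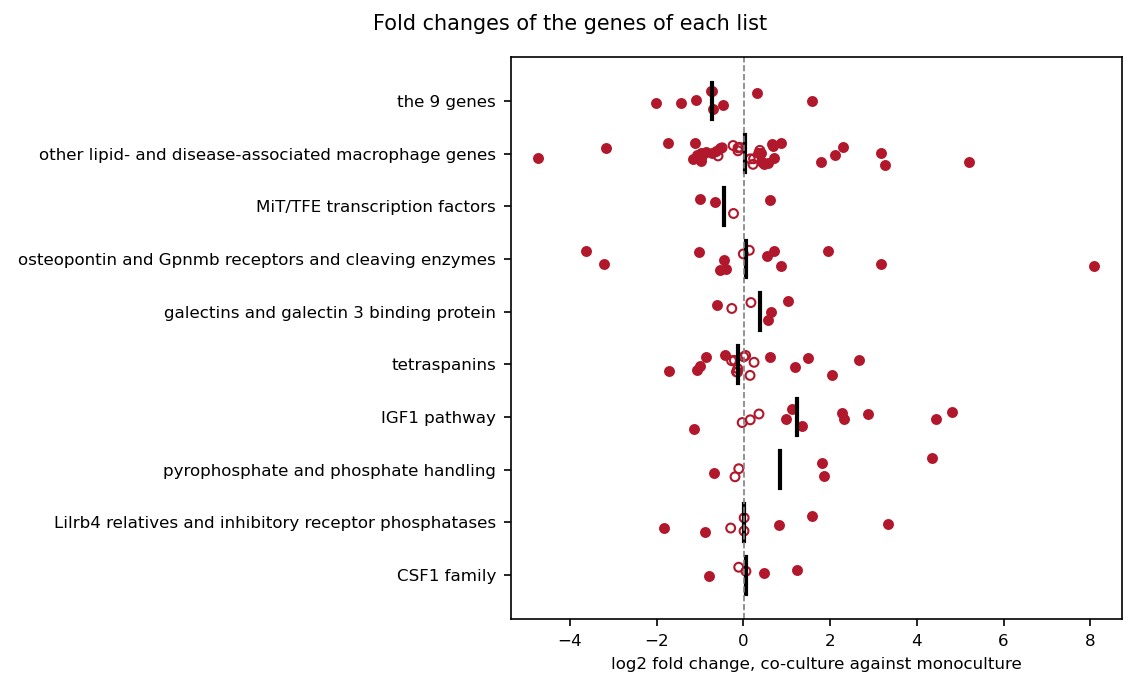
Log2 fold changes in co-culture against monoculture (x axis) of the tested genes of each list (y axis), filled where the adjusted p was under 0.05, with the list's median as a black bar and the median of all tested genes as a dashed line. The 9 genes have a median of -0.73, the 40 other genes of the program 0.04, and the IGF1 pathway 1.24, or 0.67 over the 8 of its 12 genes that pass the filter without the co-culture libraries.

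Genes listed with each of the 9, as partners, relatives or genes of like function, also changed in both directions. Of all tested genes 30.8% were called in co-culture against monoculture and 2.52% with TGF-β, and each list is set beside these shares. Of the MiT/TFE transcription factors, which drive lysosomal genes and of which Mitf is a known activator of Gpnmb, Mitf (-1.01 ± 0.10, adjusted p = 1.91e-06) and Tfeb (-0.66 ± 0.12, adjusted p = 6.54e-04) fell, Tfec rose (0.61 ± 0.10, adjusted p = 3.96e-04) and Tfe3 did not pass (-0.23 ± 0.08, adjusted p = 0.0508), and with TGF-β 0 of 4 passed with limma, edgeR or DESeq2 (1 at an unadjusted p under 0.05 with limma), the smallest adjusted p being that of Mitf (-0.29 ± 0.10, 0.148). Of 14 tested receptors and cleaving enzymes of osteopontin and Gpnmb, 6 rose and 6 fell (85.7% called, median 0.07). The integrin genes Itga9 (3.17 ± 0.14, adjusted p = 1.30e-09) and Itgb5 (1.95 ± 0.10, adjusted p = 5.35e-09) and the protease gene Mmp14 (8.09 ± 0.14) rose, and, named after its value was seen, the osteopontin receptor gene Cd44 fell (-1.02 ± 0.11, adjusted p = 4.44e-06). Of the other tested proteases, also named afterwards, Mmp9 (-3.63 ± 0.59, adjusted p = 0.00202) and Mmp12 (-3.22 ± 0.32, adjusted p = 1.37e-04) fell. Adam10 rose (0.55 ± 0.10, adjusted p = 4.81e-04) and Adam17 did not pass. Mmp14 averaged 27180.0 normalized counts in co-culture, 382 with TGF-β and 89.1 in monoculture. With TGF-β 3 of the 14 rose and none fell (21.4% called), among them Mmp14 (1.99 ± 0.14, adjusted p = 6.80e-06).

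Among 6 tested relatives of Lgals3, 3 rose and 1 fell (66.7% called, beside 30.8% of all tested genes). Lgals9 (0.65 ± 0.09, adjusted p = 5.92e-05) and Lgals8 (0.58 ± 0.09, adjusted p = 1.50e-04) rose, both being galectins that bind glycans exposed on damaged membranes, whereas the galectin 3 binding protein gene Lgals3bp fell (-0.61 ± 0.08, adjusted p = 3.26e-05). With TGF-β Lgals3bp, which had the smallest p of the 6, did not pass (-0.21 ± 0.08, adjusted p = 0.205). Of 19 tested genes of the tetraspanin list, which also holds tetraspanin partners, 5 rose and 5 fell (52.6% called, median -0.13). Tspan15, among the 5 rises, passed the filter only through co-culture (means of 40.9 in co-culture, 3.67 with TGF-β and 2.32 in monoculture). The tetraspanin partner gene Ptgfrn rose (2.67 ± 0.14, adjusted p = 6.05e-09), and Tspan13 (-1.71 ± 0.13, adjusted p = 1.72e-07) and Cd37 (-0.99 ± 0.10, adjusted p = 3.59e-06) fell. With TGF-β 2 of the 19 rose and 1 fell (15.8% called, beside 2.52% of all tested genes), with Tspan13 lower (-0.77 ± 0.13, adjusted p = 0.00504) and Ptgfrn higher (0.84 ± 0.14, adjusted p = 0.00568).

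Genes of the Igf1 pathway were mixed. Of 12 tested, 8 rose and 1 fell in co-culture (75.0% called, beside 30.8% of all tested genes, median 1.24). Of these, Igfbp3, Igfbp5, Igfbp7 and Irs1, all among those that rose, passed the filter only through the co-culture libraries, where they were high. Of the other 8 tested genes 4 rose, 1 fell and 3 did not pass (median 0.67). With Igfbp3 and Igfbp5, at 0 reads in monoculture, set to 3 reads per library there, the median of the 12 is also 1.24, since both stay above it. The adaptor gene Irs2 rose (1.36 ± 0.11, adjusted p = 3.94e-07), and so did the binding protein gene Igfbp7 (4.45 ± 0.30, adjusted p = 6.14e-08). Igfbp5 had 164, 186 and 649.8 normalized counts in co-culture and 0 reads in all 3 monoculture libraries. The gene that fell was Igf2r, which encodes a receptor that clears insulin-like growth factor 2 and sorts lysosomal enzymes (-1.14 ± 0.11, adjusted p = 1.61e-06). Fibroblast markers were higher in the same libraries, with the sums given above, and their part in the rise of the binding proteins was not tested. With TGF-β 0 of the 12 passed with limma or edgeR and 2 with DESeq2 (3 at an unadjusted p under 0.05 with limma), the smallest limma adjusted p being that of Igf2r (-0.39 ± 0.11, 0.0766).

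Of 6 tested genes that handle pyrophosphate and phosphate with Ank, 3 rose and 1 fell (66.7% called, beside 30.8% of all tested genes, median 0.85). The pyrophosphate-producing ectoenzyme gene Enpp1 rose (1.81 ± 0.13, adjusted p = 1.90e-07), as did the nucleotidase genes Entpd1 (1.86 ± 0.11, adjusted p = 1.51e-08) and Nt5e (4.36 ± 0.28, adjusted p = 5.23e-08), and, named as the only fall, the phosphate importer gene Slc20a1 fell (-0.68 ± 0.08, adjusted p = 1.21e-05). With TGF-β Nt5e rose (2.21 ± 0.28, adjusted p = 8.43e-04) and Slc20a1 fell (-0.34 ± 0.08, adjusted p = 0.0364). Of 8 tested relatives of Lilrb4 and phosphatases of its pathway, 3 rose and 2 fell (62.5% called, median 0.02). One of the rises, Lilra5, passed the filter only through co-culture (means of 33.5 in co-culture and 4.59 in monoculture). The inhibitory Fc receptor gene Fcgr2b (3.34 ± 0.11, adjusted p = 1.21e-10) and the lipid phosphatase gene Inpp5d (0.83 ± 0.09, adjusted p = 8.03e-06) rose, and the activating paired receptor gene Pira2 fell (-1.83 ± 0.12, adjusted p = 6.48e-08). With TGF-β Fcgr2b rose (0.98 ± 0.11, adjusted p = 3.50e-04), as the only 1 of the 8 that passed (12.5%, beside 2.52% of all tested genes). Of 5 tested genes of the list drawn as CSF1 family, the receptor genes Csf3r (1.23 ± 0.22, adjusted p = 8.57e-04) and Csf2rb (0.47 ± 0.10, adjusted p = 0.00177) rose and Csf2ra fell (-0.79 ± 0.09, adjusted p = 1.33e-05). Those called were 60.0% of the list. These 3 genes encode receptors of other cytokines than M-CSF. The M-CSF receptor gene Csf1r, in the same list, did not pass (0.06 ± 0.10, adjusted p = 0.696). With TGF-β Csf2rb, which had the smallest p of the 5, did not pass (-0.33 ± 0.10, adjusted p = 0.0970).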

How the data were processed

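Sorted macrophages gave RNA, of which 10 ng went into each SMART-Seq Stranded library, per the labels' protocols. The authors deposited 1 table with 1 signal value per gene and library (reads divided by a size factor). The submitters' processing notes list bcl2fastq 2.20, STAR 2.7.3, R 3.6.1, DESeq2 1.24.0 and build mm10. The counting program and annotation are not given in the sources used here. In each column 100% of the deposited signal values were whole multiples of the worth of 1 read (tolerance 0.05), so read counts were recovered, and their DESeq2 1.42.0 size factors differed from the deposited scaling by at most 1.03e-09 of its value.

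The filter kept 16328 of 24607 genes, those reaching 10 in 3 or more libraries. limma 3.58.1 (trend, robust, R 4.3.3) was run on log2(value + 10) with all 9 libraries in 1 fit and the group as the only factor, which understates fold changes of low genes. Adjusted p-values (Benjamini-Hochberg) under 0.05 were called, and intervals are 95%. On the recovered reads edgeR 4.0.16 (quasi-likelihood) called 2481 genes higher and 2449 lower in co-culture over monoculture, 185 and 202 in TGF-β over monoculture, and 2078 and 1935 in co-culture over TGF-β. Other alternatives were pseudocount, filter, TMM, DESeq2, 2 groups only, a replicate block and leaving out each library. The fit was tested on simulated data. Named were the 9 genes, the 3 genes of each list with the smallest p in co-culture over monoculture and the 1 in TGF-β over monoculture, and the 2 nearest profiles of each of the 9. The genes, lists and rule were chosen with earlier results of these data known. Of all identifiers 24335 matched GENCODE M21, the source of positions and exon lengths.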

Additional observations from a re-analysis of the deposited data

How the results depend on the processing

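Over 27 fold changes (9 genes, 3 comparisons) and 16 alternatives each, 417 of 432 kept direction and side of the threshold, 13 lost the call, 2 gained it and 0 changed direction, and those 15 are given above with the genes they concern, which are Cd63, Spp1, Gpnmb, Lilrb4 and Lgals3. With no filter 1 of the 9 genes was called higher in co-culture against monoculture, in place of 2. DESeq2 called 423 genes higher and 486 lower with TGF-β, in place of 185 and 227, and 2 of the 9 lower, in place of 1. Leaving out 1 library at a time gave 1694 to 2825 genes higher in co-culture against monoculture (1694 without co-culture library 1 and 1705 without 2), with 1 to 2 of the 9 higher, and 1337 to 2450 higher in co-culture against TGF-β (1337 without co-culture library 1 and 1339 without 2). With TGF-β against monoculture it gave 92 to 496 higher and 73 to 439 lower, with 0 to 1 of the 9 lower. There TGF-β library 1 gave 92 and 73 when left out and TGF-β library 3 gave 496 and 439, and fewer were lower without TGF-β library 2 (123) or monoculture library 1, 2 or 3 (112, 104 and 150). The causes were not tested. The labels number replicates alike in each group but do not call them pairs, so the numbers were not taken as pairs. Deviations from the group mean correlated at -0.147 to 0.372 in same-numbered pairs of libraries (3 of 9 above 0.1). In differently numbered pairs they correlated at -0.351 to 0.249. With 3 libraries per group the deviations in a group depend on each other, so these values do not settle the pairing. Y-linked genes summed to 21544, 18839 and 17950.0 in library 1 of co-culture, TGF-β and monoculture, and to at most 109 in libraries 2 and 3 of any group, which ties the number to sex but not to a mouse. With the replicate number as a block 2522 genes were higher and 2404 lower in co-culture, 189 and 208 with TGF-β, 2088 and 1868 in co-culture against TGF-β, and no call on the 9 genes changed. Csf1 had the fewest reads of the 9, 115 to 279 in monoculture.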

Other observations

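Library 2 had the highest value of the 3 TGF-β libraries for 8 of the 9 genes, and of the 3 monoculture libraries for 5 of the 9, against 1 of the 9 in co-culture. The same count was not made over all tested genes, so whether it is particular to the 9 is not known. For Csf1 library 2 was the highest in every group, at 788 in co-culture, 310.3 with TGF-β and 321 in monoculture. Within co-culture the largest spread was that of Spp1, whose highest library was 1.63 times its lowest, and within monoculture that of Csf1, at 1.73 times. Igfbp5 was likewise highest in co-culture library 3, at 649.8, against 164 and 186 in co-culture libraries 1 and 2.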
